A study of Mus musculus with 16 samples.

Results

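The AP-1 family was described here by 10 genes chosen by name: the Fos family members Fos, Fosb, Fosl1 and Fosl2, the Jun family members Jun, Junb and Jund, the Batf factors Batf and Batf3, and Atf3. All 10 were measured, among 19938 genes in all, and each had 1 probe set, so that no choice between probe sets was needed. RNA came from mouse CD8 T cell clones of 2 kinds, a conventional clone labelled cyclosporine-sensitive and an unconventional clone labelled cyclosporine-resistant, both grown with IL-1a, IL-6, IL-7, IL-15, TNF-α and interferons. Every culture was stimulated with plate-bound antibody to CD3 in medium lacking added cytokines, and either received no drug or received cyclosporine A (CsA) at 1 ug/ml. There were 4 arrays in each of the 4 groups. Each line is 1 clone, so a difference between the lines is a difference between these clones, and unstimulated cells were not analysed here, so no induction by anti-CD3 was measured. The labels number the replicates and do not say whether they were grown separately, so the p-values rest on a spread that may be technical only.

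AP-1 is not 1 protein but a set of dimers of basic leucine zipper (bZIP) proteins. Fos proteins do not pair with each other and need a Jun partner, Jun proteins can also pair among themselves, and Batf proteins pair with Jun proteins but carry no transactivation domain. Receptor signals reach these genes through the MAP kinases ERK and JNK, and in activated T cells AP-1 binds beside the calcineurin-dependent factor NFAT at cytokine genes, or beside IRF4 and IRF8 when Batf is the partner. Cyclosporine A, bound to cyclophilin, inhibits calcineurin.

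Windows of 250 bases upstream of the annotated start are shown for 6 members: the 4 that changed at least 2-fold with the drug in a clone (Fosb, Junb, Batf3 and Atf3), and the paralogues Fos and Jun, which moved against Fosb and Junb in the conventional clone. They are RefSeq sequences of build GRCm38.p6, where 9 of the 10 members had a window, and capitals mark matches, on either strand, to TGACG (the half-site of the cAMP response element) or TGACATCA (the variant site known from the Jun promoter). The windows are chr12:85473640-85473889 on the plus strand for Fos, chr7:19310046-19310295 on the minus strand for Fosb, chr4:95052223-95052472 on the minus strand for Jun, chr8:84978749-84978998 on the minus strand for Junb, chr1:191098164-191098413 on the plus strand for Batf3 and chr1:191183334-191183583 on the minus strand for Atf3.
Fos: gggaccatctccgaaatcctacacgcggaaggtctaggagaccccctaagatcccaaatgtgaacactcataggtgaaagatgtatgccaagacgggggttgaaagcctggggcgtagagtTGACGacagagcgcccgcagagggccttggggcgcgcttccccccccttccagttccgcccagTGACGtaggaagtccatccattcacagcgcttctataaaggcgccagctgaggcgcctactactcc
Fosb: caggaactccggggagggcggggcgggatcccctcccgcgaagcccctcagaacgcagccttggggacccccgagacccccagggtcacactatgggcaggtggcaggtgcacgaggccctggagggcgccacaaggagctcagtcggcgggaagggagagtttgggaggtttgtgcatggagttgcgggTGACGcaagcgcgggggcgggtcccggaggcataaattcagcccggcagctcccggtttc
Jun: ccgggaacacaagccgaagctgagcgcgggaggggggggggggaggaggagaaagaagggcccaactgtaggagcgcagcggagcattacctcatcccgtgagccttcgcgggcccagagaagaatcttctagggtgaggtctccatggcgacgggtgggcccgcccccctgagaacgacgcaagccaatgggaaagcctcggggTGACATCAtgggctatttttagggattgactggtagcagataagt
Junb: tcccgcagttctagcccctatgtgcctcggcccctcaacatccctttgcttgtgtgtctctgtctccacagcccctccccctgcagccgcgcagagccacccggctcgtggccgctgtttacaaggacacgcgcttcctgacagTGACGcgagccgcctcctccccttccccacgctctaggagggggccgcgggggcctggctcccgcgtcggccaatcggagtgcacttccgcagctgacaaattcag
Batf3: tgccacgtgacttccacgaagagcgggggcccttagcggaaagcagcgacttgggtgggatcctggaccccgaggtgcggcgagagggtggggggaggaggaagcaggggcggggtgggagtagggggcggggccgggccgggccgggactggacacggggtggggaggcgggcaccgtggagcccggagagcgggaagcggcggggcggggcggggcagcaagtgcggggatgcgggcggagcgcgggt
Atf3: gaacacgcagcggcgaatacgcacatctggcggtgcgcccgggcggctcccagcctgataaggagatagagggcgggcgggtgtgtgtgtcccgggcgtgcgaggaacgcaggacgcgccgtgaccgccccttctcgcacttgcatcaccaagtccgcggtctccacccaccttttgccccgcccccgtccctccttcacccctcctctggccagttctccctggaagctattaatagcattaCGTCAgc

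Fos held 2 matches to TGACG, starting at positions -129 and -66 from the start, Fosb 1 at -60, Junb 1 at -106, and Atf3 1 on the other strand at -7. Batf, whose window is not shown, held 1 at -98. The motif occurs in 17.8% of the 32544 windows of this kind. TGACATCA was found at -45 in Jun, and in 2.84% of all windows. None of the 9 windows held TGANTCA, the palindromic AP-1 site (6.73% of all windows), TGACGTCA (1.55%) or the CArG box bound by SRF (1.48%). Only the 250 bases upstream of each start were searched, so a site further upstream or downstream would not be found. The NFAT core GGAAA, present in 55.7% of windows on either strand, occurred 1 time in Batf3 and Jun and 2 times in Batf. TGACGTCA contains TGACG, which was added to the search after the windows had been read. These matches are letters in a window and were not tested as binding sites.

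Values are log2 expression levels, so that a difference of 1 is a 2-fold change. A gene was called where limma's moderated test gave an adjusted p under 0.05 (Benjamini-Hochberg over all 19938 genes). Array medians lay between 5.16 and 5.35, and arrays of 1 group correlated at 0.995 to 0.998. CD3 chains were high in every group, with group means of 10.52 to 10.92 for Cd3d, 10.52 to 11.09 for Cd3e and 12.16 to 12.74 for Cd3g, as were Thy1 (10.54 to 11.64) and Ptprc (11.34 to 11.77). Cd8a ranged from 8.56 to 12.50 and Cd8b1 from 10.24 to 12.31, both lower in the unconventional clone. Of 3 CD4 T cell markers, Cd4 had group means of 4.21 to 4.32 and Foxp3 of 4.83 to 4.91, and neither was called for the drug. Zbtb7b had group means of 6.205 to 7.07 and was called higher with the drug in both clones (0.47 and 0.53). With the drug Cd8a fell in both clones (-0.58 in the conventional and -1.75 in the unconventional clone), as did Thy1 (-0.9988 and -0.66), the 3 CD3 chains rose by 0.22 to 0.54, and Cd8b1 was not called. Batf3 and Irf8 are also known from dendritic cells. Of 8 macrophage and dendritic cell markers measured, 2 were called higher with the drug in each clone, Itgax (1.33 in the conventional and 0.76 in the unconventional clone, with group means of 8.91 to 10.23) and Cd68 (0.79 and 0.43, with group means of 7.26 to 9.13), while Batf3 fell, and 6 were not called. The mean log2 level of the list ran from 5.10 to 5.1997 without and 5.39 to 5.49 with the drug over the conventional arrays, and from 5.18 to 5.36 and 5.42 to 5.46 over the unconventional arrays. Group means of the other 6 were 3.69 to 3.77 for Lyz2, 3.96 to 4.29 for Csf1r, 3.52 to 3.70 for Adgre1, 3.80 to 4.06 for Cd14, 4.61 to 4.84 for Fcgr1 and 4.45 to 4.86 for Flt3. Of 8 epithelial and fibroblast markers, 1 was called for the drug in the conventional clone, Col1a2 (-0.26). In the unconventional clone 2 were called, both higher, Cdh1 and Col1a1 (0.34). Cdh1 stood at 5.03 and 5.05 in the conventional clone and at 7.12 and 9.22 in the unconventional clone without and with the drug. Krt8, Krt18, Col3a1, Pdgfra and Epcam were not called in either clone, and Epcam had group means of 4.28 to 4.30. Of 4 B cell markers, Cd79a was called higher in the unconventional clone (0.38), and none was called in the conventional clone. None of 5 erythroid and granulocyte markers was called for the drug in either clone. The part of any of these markers in the results was not tested. In bulk RNA, fewer cells with a transcript and less of it per cell cannot be told apart.

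Members moved in both directions with cyclosporine A in the conventional clone. Batf3 and Atf3 fell furthest, Junb and Fos fell, and Fosb and Jun rose. Thus 6 of 10 members were called, against 31.4% of all genes, 4 of them lower (15.5% of all genes) and 2 higher (15.9%). A called change of at least 2-fold was seen for 4 members and for 5.06% of all genes, with 3 members lower (2.69% of all genes) and 1 higher (2.37%). The arrays with and without the drug did not overlap for 6 members, against 30.5% of all genes. The median change of the members was -0.18, and that of all genes 0.02.

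In the unconventional clone 6 members were called as well, against 24.9% of all genes. Atf3, Batf3, Junb and Fosl2 fell (4 lower, against 12.3% of all genes), and Fosb and Batf rose (2 higher, against 12.6%). By at least 2-fold, Atf3 fell (1 member, against 1.07% of all genes) and Fosb rose (1, against 1.23%), which makes 2 members against 2.3%. Arrays were apart for 6 members and for 27.2% of all genes. The median over the members was 0.10, and that over all genes 0.02. With each array centred on its median, calls over all genes in this clone split into 1891 higher and 2780 lower in place of 2518 and 2452, and Batf was no longer called. The calls of Batf and Fosl2 were small changes and depended on single arrays, as given below.

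**Figure D1:**
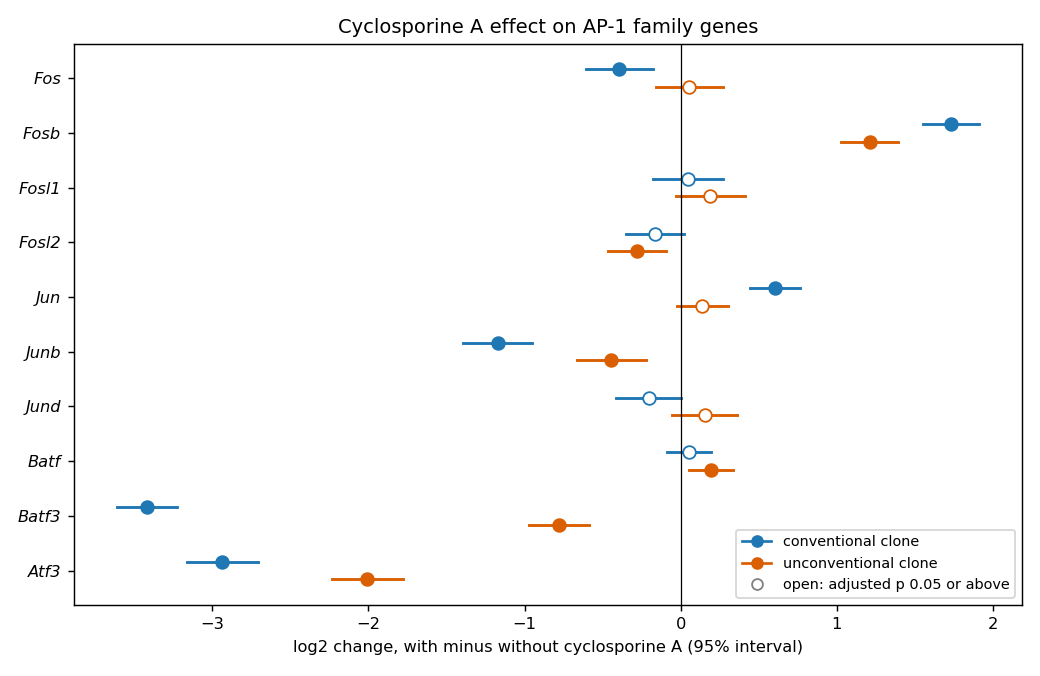
Change of each AP-1 family gene with cyclosporine A, as log2 level with minus without the drug, with 95% intervals from limma over 4 arrays per group; filled points were called (adjusted p under 0.05) and open points were not. Batf3 moved to -3.42 in the conventional clone and to -0.78 in the unconventional clone, while Fosb lay right of 0 in both.

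Among the Fos genes, Fosb, which encodes a protein with a strong transactivation domain like that of Fos, had the largest change. In the conventional clone its arrays read 8.30, 8.30, 8.24 and 8.43 without the drug and 10.07, 9.94, 9.99 and 10.19 with it. The unconventional arrays read 5.97, 5.80, 6.13 and 5.73 without the drug and 7.05, 7.02, 7.16 and 7.24 with it. No groups overlapped: the conventional clone under cyclosporine A was highest and the unconventional clone without it lowest. Fosb rose 3.32-fold in the conventional clone (log2 change 1.73, SE 0.09, adjusted p = 4.8e-12) and 2.31-fold in the unconventional clone (1.21, SE 0.09, adjusted p = 2.5e-09). The rise was smaller in the unconventional clone, by 0.52 (-0.52, SE 0.12, adjusted p = 0.0049).

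Fos, the founding member of the family, is transcribed within minutes of stimulation and its mRNA is short-lived. Its arrays in the conventional clone read 6.17, 6.38, 6.41 and 6.53 without the drug and 6.02, 5.94, 6.05 and 5.90 with it. Those of the unconventional clone read 5.35, 5.92, 5.66 and 5.78 without and 5.87, 5.64, 5.69 and 5.72 with the drug. The drug groups were apart in the conventional clone and overlapped in the other. All 16 values lay above the median of their array. Fos fell by 0.39 in the conventional clone (-0.39, SE 0.10, adjusted p = 0.0048), while the change in the unconventional clone was 0.06 (95% interval -0.16 to 0.27, adjusted p = 0.7988). The difference of the effects, 0.45 (SE 0.14), passed narrowly (adjusted p = 0.0393). Its adjusted p ran from 0.0127 to 0.0875 over the alternatives, and the call was lost in 11 of the 16 fits that left out 1 array.

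Fosl2 (Fra-2) and Fosl1 (Fra-1) lack the strong transactivation domain of Fos and Fosb. Fosl2 stood at 9.09 ± 0.11 without and 8.93 ± 0.13 with the drug in the conventional clone, and its arrays overlapped (-0.16, SE 0.09, adjusted p = 0.1934). In the unconventional clone it went from 7.98 ± 0.15 to 7.70 ± 0.11 (SD, n = 4 in each group), with no overlap (-0.28, SE 0.09, adjusted p = 0.0238). Leaving out replicate 1 of the unconventional anti-CD3 group (-0.21) or replicate 3 of that clone under the drug (-0.22) ended the call. The difference between the clones' effects was not called (-0.12, 95% interval -0.38 to 0.15). Fosl1 lay below the median of its array on all 16 arrays, with values from 4.06 to 4.62, so that differences at this level are compressed. It changed by 0.05 (adjusted p = 0.8027) and 0.19 (adjusted p = 0.2428) with the drug in the conventional and the unconventional clone, and all neighbouring groups overlapped.

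**Figure D2:**
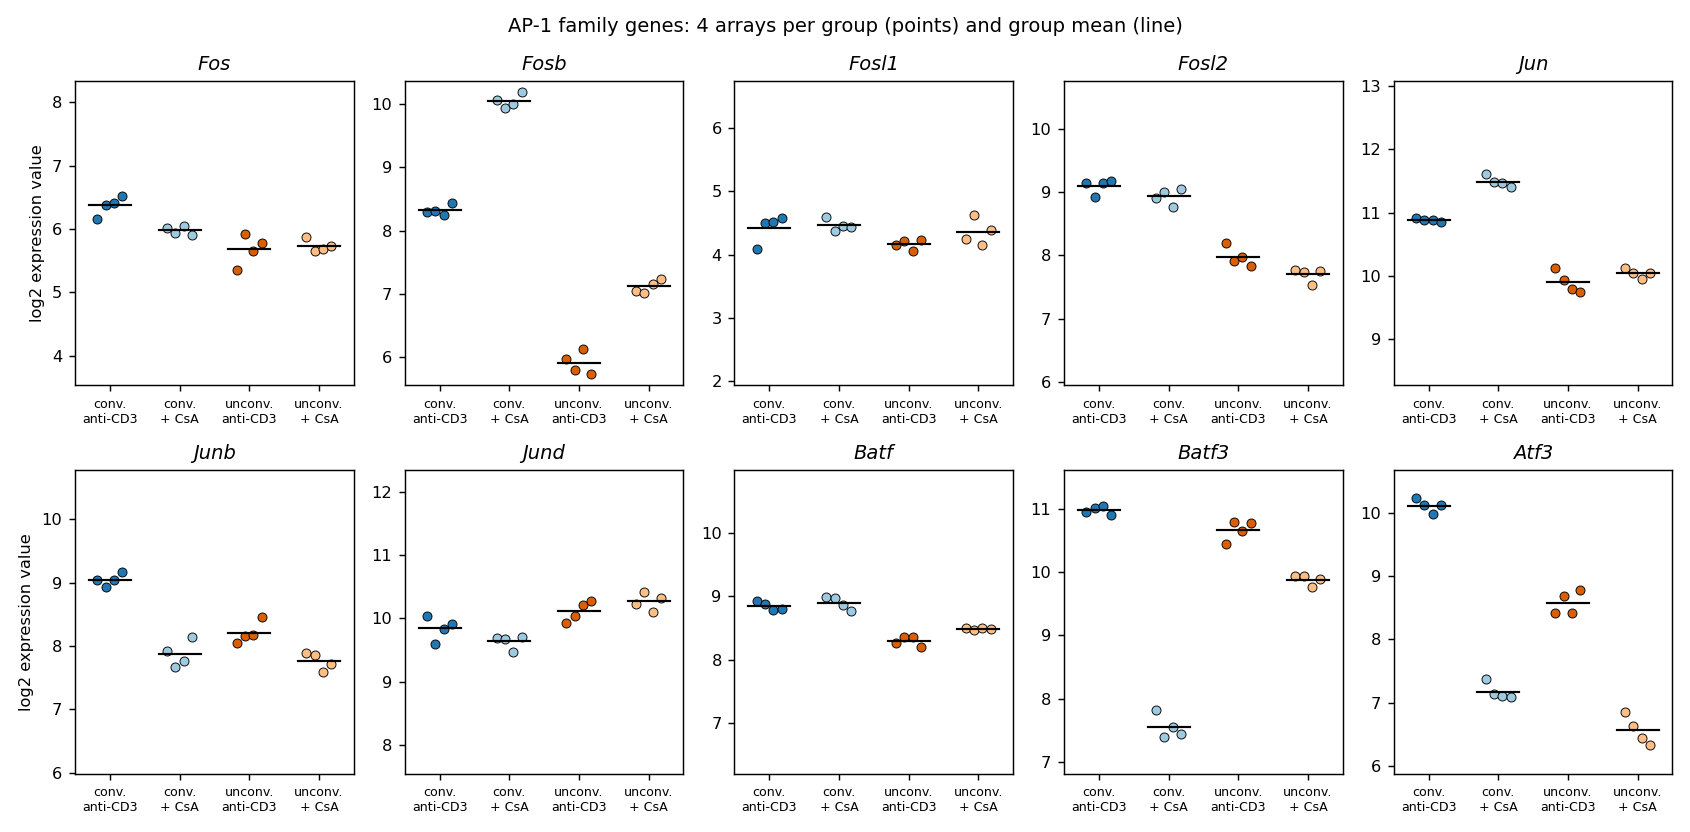
Log2 expression of each AP-1 family gene on every array (points) with the group mean (line), for the conventional (conv.) and unconventional (unconv.) clone with and without cyclosporine A (CsA); each panel spans the same number of log2 units on its own axis. Batf3 was near 11 in both clones without the drug and stood at 7.56 with it in the conventional clone against 9.88 in the unconventional one.

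The Jun proteins are the partners that every Fos or Batf protein here can use, and the members of this subfamily moved in different directions. Jun, the strongest transactivator of them, read 10.91, 10.89, 10.88 and 10.86 in the conventional clone without the drug and 11.61, 11.48, 11.47 and 11.41 with it. Unconventional arrays read 10.12, 9.94, 9.80 and 9.75 without and 10.13, 10.05, 9.95 and 10.04 with the drug. The drug groups were apart in the conventional clone and overlapped in the unconventional clone. Jun rose 1.52-fold in the conventional clone (0.60, SE 0.08, adjusted p = 2.5e-06). The change in the unconventional clone was not called (0.14, SE 0.08, adjusted p = 0.2449), although it was without unconventional anti-CD3 replicate 1 (0.21, adjusted p = 0.0313). The difference of effects was -0.47 (SE 0.11, adjusted p = 0.0045).

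Junb, which transactivates more weakly than Jun and can oppose it, read 9.04, 8.92, 9.03 and 9.17 in the conventional clone without the drug and 7.92, 7.66, 7.76 and 8.14 with it. Values in the other clone were 8.04, 8.16, 8.17 and 8.45 without and 7.89, 7.85, 7.59 and 7.72 with the drug. Both pairs of groups were apart, and the conventional clone under the drug overlapped with both groups of the unconventional clone. Junb fell 2.25-fold in the conventional clone (-1.17, SE 0.10, adjusted p = 2.1e-08) and 1.36-fold in the unconventional clone (-0.44, SE 0.10, adjusted p = 0.0030). The fall was smaller in the unconventional clone by 0.73 (SE 0.15, adjusted p = 0.0015).

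Jund, the Jun gene that resting cells also express, was not called for the drug in either clone. It stood at 9.84 ± 0.19 and 9.64 ± 0.11 without and with the drug in the conventional clone (-0.20, SE 0.10, adjusted p = 0.1405), and at 10.11 ± 0.16 and 10.27 ± 0.14 in the unconventional clone (0.15, SE 0.10, adjusted p = 0.3403; SD, n = 4 in each group). The arrays overlapped in both. Without conventional anti-CD3 replicate 2, the lowest of its group, the fall in the conventional clone was called (-0.29, adjusted p = 0.0310), as was the difference of effects (0.44, adjusted p = 0.0295, against 0.36 and adjusted p = 0.1005 with all arrays).

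Batf and Batf3 pair with Jun proteins and bind composite sites together with IRF4 or IRF8, and Batf is needed for effector differentiation of CD8 T cells. Batf stood at 8.85 ± 0.07 and 8.90 ± 0.11 without and with the drug in the conventional clone (0.05, SE 0.07, adjusted p = 0.6341), with overlapping arrays. In the unconventional clone its arrays read 8.27, 8.35, 8.36 and 8.21 without and 8.50, 8.48, 8.50 and 8.49 with the drug, a rise of 0.19 (SE 0.07, adjusted p = 0.0381). The groups were apart, but the change was small and the call was lost in 6 of the 8 fits that left out 1 of these arrays, with values of 0.16 to 0.21 over the 8.

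Batf3 had the largest fall of the family and the largest difference between the clones in the effect of the drug. In the conventional clone its arrays read 10.95, 11.01, 11.04 and 10.90 without the drug and 7.83, 7.40, 7.55 and 7.45 with it. The other clone read 10.44, 10.79, 10.65 and 10.77 without and 9.94, 9.94, 9.77 and 9.89 with the drug. No groups overlapped, and the mean of the conventional clone under the drug lay 2.33 below the next. Batf3 fell 10.7-fold in the conventional clone (-3.42, SE 0.09, adjusted p = 7.3e-16) and 1.72-fold in the unconventional clone (-0.78, SE 0.09, adjusted p = 2.2e-06). The difference of the effects was 2.64 (95% interval 2.36 to 2.91, SE 0.13, adjusted p = 6.2e-11).

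Atf3, a bZIP factor that is induced by stress and by receptor signals and represses as a homodimer, fell in both clones. It read 10.22, 10.12, 9.98 and 10.11 in the conventional clone without the drug and 7.37, 7.13, 7.10 and 7.09 with it. Arrays of the unconventional clone read 8.41, 8.68, 8.42 and 8.77 without and 6.85, 6.63, 6.43 and 6.33 with the drug. No groups overlapped, and both drug-free groups lay above both groups with the drug. The fall was 7.65-fold in the conventional clone (-2.94, SE 0.11, adjusted p = 5.8e-14) and 4.02-fold in the unconventional clone (-2.01, SE 0.11, adjusted p = 4.0e-11), a difference of 0.93 (SE 0.15, adjusted p = 0.0002).

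The difference of effects was thus called for 6 of 10 members, against 16.3% of all genes: for Fos, Junb, Batf3 and Atf3 in the higher direction (4, against 8.51%) and for Fosb and Jun in the lower (2, against 7.78%). It was at least 2-fold for 1 member, Batf3, against 3.12% of all genes (1.66% higher and 1.46% lower). In all 6 the change in the conventional clone was the larger in size. With median centring, calls of this difference over all genes split into 1192 higher and 1643 lower in place of 1696 and 1551, and the call of Fos was lost (0.39, adjusted p = 0.0653). Batf (0.14, 95% interval -0.06 to 0.34) and Fosl1 (0.14, 95% interval -0.17 to 0.46) were not called.

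Paralogues were also compared within each array as log2 ratios, which show unequal change between the genes; these 3 ratios in 2 clones were chosen after the values had been seen. The Jun to Junb ratio rose by 1.78 (SE 0.14) in the conventional and 0.58 (SE 0.17) in the unconventional clone. The Fosb to Fos ratio rose by 2.12 (SE 0.10) and 1.15 (SE 0.20), and the Batf to Batf3 ratio by 3.47 (SE 0.10) and 0.97 (SE 0.09). Since the pairs were picked among members that had moved apart, the ratios are a description and no p-value is given for them.

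The clones also differed in the levels from which the drug acted. With anti-CD3 alone, 9 of 10 members were called between the clones, against 42% of all genes. Of these, 8 were lower in the unconventional clone (21.7% of all genes) and 1, Jund, was higher (20.3%), and arrays were apart for 8 (38.6% of all genes). A called difference of at least 2-fold was found for 3 members, all lower, against 7.74% of all genes (4.41% higher and 3.33% lower). The median over the members was -0.77, against -0.07 over all genes. Fosb was 5.32-fold lower there (-2.41, SE 0.09, adjusted p = 1.3e-14), Atf3 2.91-fold (-1.54, SE 0.11, adjusted p = 4.3e-10) and Fosl2 2.17-fold (-1.12, SE 0.09, adjusted p = 2.3e-09). Smaller differences were found for Jun (-0.98), Junb (-0.84), Fos (-0.69), Batf (-0.55) and Batf3 (-0.31, adjusted p = 0.0104). Jund was higher by 0.27 (SE 0.10, adjusted p = 0.0337) with overlapping arrays, a call lost in 4 of the 8 fits that left out 1 of these arrays and in 4 of 11 other settings, quantile (0.23) and cyclic loess (0.20) normalization among them. Fosl1 was not called (-0.25, adjusted p = 0.0609), but was without conventional anti-CD3 replicate 1 (-0.37, adjusted p = 0.0041).

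Under cyclosporine A, 7 members were called between the clones, against 44.2% of all genes, with 5 lower in the unconventional clone (23% of all genes) and 2 higher (21.3%). By at least 2-fold, 3 were lower (4.27% of all genes) and 1 was higher (5.57%), together 4 against 9.84%. Arrays were apart for 8 members and for 42.2% of all genes, and the median was -0.33 against -0.08 over all genes. Batf3 had turned round: it was 5.01-fold higher in the unconventional clone (2.33, SE 0.09, adjusted p = 4.4e-14), having been lower there without the drug. Fosb was 7.62-fold lower (-2.93, SE 0.09, adjusted p = 4.8e-16), Jun 2.73-fold lower (-1.45, SE 0.08, adjusted p = 3.5e-12) and Fosl2 2.35-fold lower (-1.23, SE 0.09, adjusted p = 3.6e-10). Atf3 (-0.61) and Batf (-0.41) were lower and Jund was higher (0.63, SE 0.10, adjusted p = 2.3e-05). Junb (-0.11, 95% interval -0.33 to 0.11) and Fosl1 (-0.11, 95% interval -0.33 to 0.11) were not called. Fos was not called either (-0.25, adjusted p = 0.0593), although its arrays were apart, and it was called in 5 of 11 other settings and without unconventional anti-CD3 with CsA replicate 1 (-0.29). These comparisons use the same arrays as the drug comparisons above and are not independent of them.

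**Figure D3:**
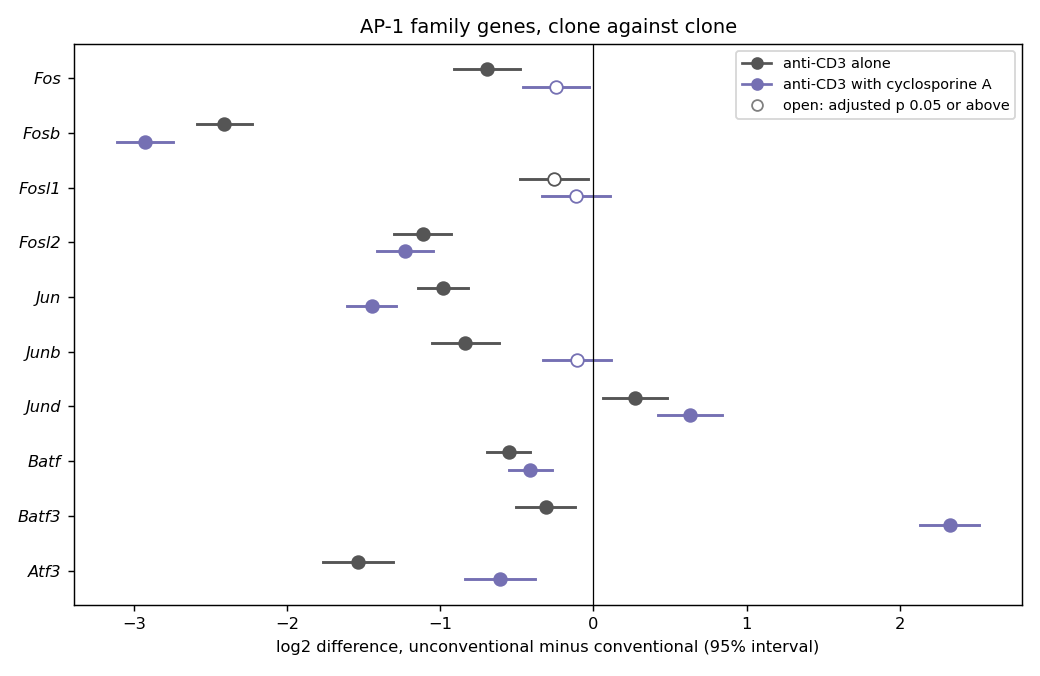
Difference of each AP-1 family gene between the clones, as log2 level in the unconventional minus the conventional clone, for cultures without and with cyclosporine A, with 95% intervals from limma over 4 arrays per group; filled points were called and open points were not. Batf3 moved from -0.31 to 2.33, and Fosb was lowest in both at -2.41 and -2.93.

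Over the 16 arrays, which fall into 4 groups, members followed a few shared patterns. Fosb was most like Jun among the members (Pearson r = 0.963) and Junb most like Atf3 (r = 0.946), whereas Jun and Junb gave r = 0.128. Outside the family, the genes nearest to Fosb were Zbtb38 (r = 0.993), Tmem18 (r = 0.992) and Relch (r = 0.990). Zbtb38, a methyl-DNA-binding zinc finger protein, stood at 7.79 and 8.93 without and with the drug in the conventional clone and at 6.01 and 7.12 in the unconventional clone. Nearest to Junb were Ctla4 (r = 0.974), an inhibitory receptor, Il19 (r = 0.973) and AI504432 (r = 0.965). Il19 had group means of 4.26 to 5.18, near or below the array medians, where differences are compressed. Ctla4 went from 11.60 to 7.58 in the conventional and from 8.76 to 6.77 in the unconventional clone. Batf3 was followed by the protease gene Ctsz (r = 0.987), by Cpne3 (r = 0.985) and by Tlcd1 (r = 0.982), with Cpne3 at 9.62 and 6.35 in the conventional and 9.73 and 8.94 in the unconventional clone. Atf3 was followed by lymphotoxin alpha, Lta (r = 0.992), by D16Ertd472e (r = 0.986) and by Hif1a (r = 0.984), with Lta at 10.32 and 6.37 in the conventional and 8.14 and 5.39 in the unconventional clone. These correlations describe how alike the profiles are over 4 group means and were not tested.

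Of the 10 members, 4 lie in neighbouring pairs. In the RefSeq gene table of GRCm38.p6, Batf3 and Atf3 are neighbours on chromosome 1 with the protein-coding gene Fam71a between them, and Fos and Batf are neighbours on chromosome 12 with the AP-1 repressor gene Jdp2 between them. Fam71a, with group means of 4.45 to 4.97, was not called for the drug in either clone. Of the 3 genes on each side of the Batf3 and Atf3 pair, Nsl1, a kinetochore gene, fell (-1.10, SE 0.10 in the conventional and -0.83, SE 0.10 in the unconventional clone), and so did the chloride channel gene Pacc1 (-1.60, SE 0.09 and -1.32, SE 0.09). Ppp2r5a rose in the unconventional clone (0.32, adjusted p = 0.0010), while Spata45, Tatdn3 and Nenf were not called in either. Jdp2 rose in the conventional clone from 6.13 to 6.73 (0.60, SE 0.12, adjusted p = 0.0006) between Fos, which fell, and Batf, which was not called, and in the unconventional clone it was not called (0.15, adjusted p = 0.4734). Of the 3 genes on each side of that pair, Ttll5 rose in both clones (0.37 and 0.42), Tmed10 in the conventional clone (0.20) and Nek9 in the unconventional clone (0.23), while Erg28, Flvcr2 and Zc2hc1c were not called in either.

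Other genes of the AP-1 system were summarised in 6 lists, beside the 31.4% of all genes called with the drug in the conventional clone (15.9% higher and 15.5% lower) and the 24.9% called in the unconventional clone (12.6% and 12.3%). Of 33 other bZIP factors measured, 12 rose and 7 fell with the drug in the conventional clone, with a median of 0.11. The largest changes were in Creb3 (1.16, and 0.34 in the unconventional clone), which is released from membranes of the secretory pathway, the basic leucine zipper repressor Nfil3 (-1.15), the stress factor Ddit3 (1.12) and Atf5 (1.00). Unconventional cells had 6 higher and 6 lower, with a median of 0.00, and the small Maf protein Maff (-1.20, and -0.43 in the conventional clone) and Nfil3 (-0.65) led. The difference of effects was called for 14 of the 33, against 16.3% of all genes. Of these, 11 were lower (7.78% of all genes) and 3 higher (8.51%). It was lowest for Ddit3 (-1.22, SE 0.13, adjusted p = 1.4e-06) and Atf5 (-0.88), and highest for Dbp (1.02) and Crem (0.98).

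Of 16 MAP kinase pathway genes measured, 6 rose and 3 fell in the conventional and 5 rose and 4 fell in the unconventional clone. Map2k6, a kinase that activates p38, rose in both (1.26, SE 0.12 and 1.78, SE 0.12), and Mapkapk2, a kinase downstream of p38, fell in both (-0.82, SE 0.08 and -1.23, SE 0.08). Mapk14, p38 alpha itself, rose in both (0.82 and 0.36). Mapk9, which encodes JNK2, rose in the conventional clone (0.80) and was not called in the other (0.19, adjusted p = 0.0679). Mapk10, which encodes JNK3, rose from 5.16 to 7.53 in the unconventional clone (2.37, SE 0.12, adjusted p = 1.9e-11), by 2.03 more (SE 0.17, adjusted p = 6.8e-08) than in the conventional clone, where it rose by 0.35 at a level of 4.26. Map3k8, an upstream kinase of ERK, fell in the unconventional clone (-1.23) and was not called in the conventional clone (0.14), and its effects differed by -1.37 (SE 0.14, adjusted p = 8.6e-07).

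Of 17 SRF, ternary complex factor and other immediate early genes, 5 rose and 8 fell in the conventional clone (median -0.17), and 6 rose and 7 fell in the unconventional clone (median -0.17). Dusp1, a phosphatase of MAP kinases, rose in both (2.01, SE 0.12 and 1.31, SE 0.12), and Klf6 fell in both (-1.40, SE 0.07 and -1.02, SE 0.07). Myc (-1.17 and -0.39) and Ier5 (-1.07 and -0.54) fell in both as well. The antiproliferative gene Btg2 had the largest change of the list in the unconventional clone (1.86, and 0.57 in the conventional clone), and Ier3 fell there (-0.73) and was not called in the conventional clone (0.16). The rise of Btg2 was larger in the unconventional clone by 1.29 (SE 0.13, adjusted p = 6.0e-07).

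Of 8 NFAT and IRF genes, not all of which encode known partners of AP-1, 2 rose and 4 fell in the conventional clone. In the unconventional clone 1 rose and 4 fell. The falls counted in both clones include Nfat5 (-0.57, SE 0.12 and -0.89, SE 0.12). Irf4 fell in both (-0.82, SE 0.07 and -1.05, SE 0.07) from levels of 11.66 and 11.55. Irf8 fell in both (-0.29, SE 0.08 and -0.92, SE 0.08), and in the unconventional clone it was lower than in the conventional clone already without the drug (-1.65, SE 0.08, adjusted p = 6.6e-13). Nfatc2 rose in the conventional clone (1.38, SE 0.10) and was not called in the other (-0.04), and its effects differed by -1.41 (SE 0.15, adjusted p = 8.9e-07).

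Of 15 genes of AP-1 turnover and cofactors, 3 rose and 5 fell in the conventional clone, and 3 rose and 0 fell in the unconventional clone (3 of 15 called, against 24.9% of all genes). The mRNA decay factors Zfp36l1 and Zfp36l2 moved apart in the conventional clone (-1.38, SE 0.17 and 0.95, SE 0.08), and in the unconventional clone Zfp36l2 rose (0.33). Zfp36l1 was not called in the unconventional clone (0.10), and its effects differed by 1.49 (SE 0.25). It stood at 4.84 and 4.95 there without and with the drug, below the array medians, so that there was little room for a fall. Apex1, which keeps AP-1 in its reduced, DNA-binding state, fell in the conventional clone (-0.99, SE 0.08). With the drug Tob1 rose in both clones (0.31 and 1.14), and Usp28 fell in the conventional (-0.39) and rose in the unconventional clone (0.70).

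Of 26 genes known in textbooks as AP-1 targets, 14 fell and 3 rose in the conventional clone (median -0.50), and 15 fell and 3 rose in the unconventional clone (median -0.64), while the medians over all genes were 0.02 in both. The cytokines Il10 (-6.31 and -4.47) and Ifng (-3.43 and -5.28) and the collagenase Mmp13 (-2.49 and -3.06) fell in both, and Ctla4 (-4.01 and -1.99) did too. Il17a (-3.47) and Il3 (-3.40) fell in the unconventional clone, where they stood at 8.46 and 6.98 without the drug, and their effects differed from those in the conventional clone by -3.32 (SE 0.17) and -3.03 (SE 0.38). In the conventional clone Il17a stood at 5.38 and Il3 at 4.08 without the drug, near or below the array medians, so that there was little room for a fall there. The adhesion receptor Cd44 differed the other way (2.20, SE 0.23). The targets called higher were Plau (2.17), Mmp10 (1.74) and Hmox1 (0.67) in the conventional clone. In the unconventional clone they were Cd44 (1.73), Plau (1.42) and Prdm1 (0.78).

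Between the clones, 21.7% of all genes were called lower in the unconventional clone and 20.3% higher with anti-CD3 alone, and 23% and 21.3% with the drug. With anti-CD3 alone, 20 of 33 other bZIP factors were lower in the unconventional clone and 3 higher (median -0.26), led by Nfil3 (-2.03), the endoplasmic reticulum stress sensor Atf6 (-1.94) and Crem (-1.61). With the drug 22 were lower and 4 higher (median -0.47), led by Atf6 (-2.56), Ddit3 (-1.89) and Nfil3 (-1.53). Immediate early genes were lower for 13 of 17 and higher for 1 without the drug (Egr1 -1.17, Ier5 -1.14, Btg2 -0.97), and lower for 12 and higher for 3 with it (Ier3 -1.25, Klf10 -1.21, Egr1 -0.91).

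Of the 16 MAP kinase pathway genes, 8 were lower and 5 higher without the drug, with Mapk8, which encodes JNK1, higher (1.37), Map2k1, the ERK kinase MEK1, lower (-1.04) and Mapk10 higher (0.90); with it 7 were lower and 5 higher (Mapk10 2.93, Map3k8 -1.91, Mapk8 1.09). NFAT and IRF genes were 2 lower and 2 higher without the drug (Irf8 -1.65, Nfatc1 -0.62, Nfatc3 0.56), and 4 lower and 1 higher with it (Irf8 -2.28, Nfatc2 -1.26, Nfatc1 -0.66). Turnover genes and cofactors were 3 lower and 3 higher (Zfp36l1 -3.57, Tob1 -1.14, Apex1 0.76), 6 of 15 called against 42% of all genes, then 5 lower and 4 higher (Zfp36l1 -2.09, Apex1 1.59, Usp28 1.23). Targets were 10 lower and 6 higher in both, led by the cell cycle gene Ccnd1 (3.56), Il17a (3.09) and Il3 (2.90) without the drug and by Ccnd1 (2.73), Ifng (-2.62) and the death ligand gene Fasl (-1.95) with it.

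**Figure D4:**
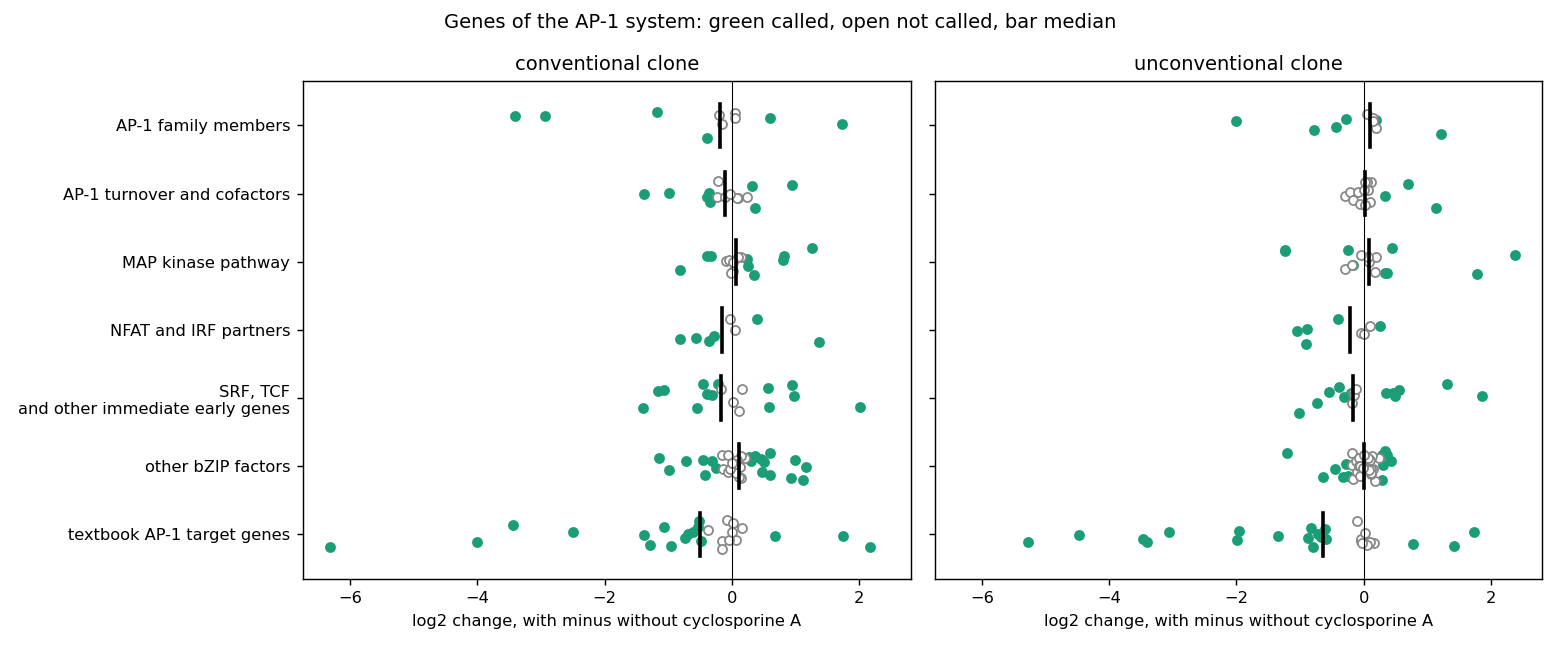
Log2 change with cyclosporine A of the AP-1 family and of the genes of 6 related lists in each clone; green points were called, open points were not, bars are medians, and the vertical spread within a row has no meaning. The target genes reach furthest left, to -6.31 in the conventional and -5.28 in the unconventional clone, and each list holds genes on both sides of 0 in the conventional clone.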

How the data were processed

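Expression was measured on Affymetrix whole-transcript arrays, 16 arrays in 4 groups of 4. The deposited values are log2 levels per probe set, a scale read from their range of 2.08 to 14.55. Per the submitters' processing notes the authors used GCOS, Partek 6.2 and RMA, with no role or order given. Where RMA equalised the arrays' distributions, a shift common to most genes would be hidden at least in part. The deposited arrays were not fully equal, with medians of 5.16 to 5.35. Of the build and annotation behind the values nothing is stated in the labels. Depth has no counterpart in counts, and the number of arrays limits the precision.

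The platform annotation gave 1 symbol to 21789 of 28853 probe sets, several to 1621, and named none for 5443. Probe sets with 1 symbol were used, the one with the highest mean for the 999 genes with several, which gave 19938 genes. Group means were estimated over the 16 arrays together in limma 3.58.1 (R 4.3.3, statmod 1.5.0), with 12 residual degrees of freedom, and p-values were two-sided. On simulated data with 19938 genes, made for the drug effect in the conventional clone, 98 of 100 log2 changes of 1 and 100 of 100 of 2 were recovered, with 6 false calls. Only these sizes were simulated, so recovery of smaller changes, such as those of Batf and Fosl2, is not known from it.

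The members, the 6 related lists and the marker lists were chosen with earlier results of these data known, so that no list was tested as a set. Of the lists, members not measured by a probe set of 1 symbol are not analysed here. Named from each list were the called genes with the largest changes (up to 4 per drug comparison and for the difference of effects, up to 3 per clone comparison), and, for members that changed at least 2-fold with the drug, the 3 genes of highest correlation. The neighbours on the chromosome, the ratios of paralogues and the target genes that rose were added later. Same-numbered arrays were checked for pairing: their deviations from the group means correlated at -0.14 to 0.28 over 24 pairs, so that numbers were not taken to pair arrays. The same-numbered array was the best match in 3 of 4 cases between the unconventional groups, and in 0 to 3 of 4 between other groups. A weak pairing was thus not excluded. Alternatives were other normalizations, filters, probe set rules, variance models, array weights, a replicate block and leaving out each array.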

Additional observations from a re-analysis of the deposited data

Results flagged for a closer look

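The response to cyclosporine A differed between the clones, by the test of the difference itself, for 6 members (unconventional minus conventional, log2): Batf3 2.64, Atf3 0.93, Junb 0.73, Fosb -0.52, Jun -0.47 and Fos 0.45. Batf3 fell in both clones, but by 3.42 in the conventional and 0.78 in the unconventional clone. The call of Fos was lost in 11 of the 16 fits that left out 1 array and in 5 of 10 other settings.

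A single array stood apart from the other 3 of its group in 4 of 40 groups examined (10 members in 4 groups), by its gap as a share of the group's range, where chance flags about 1 in 20. These were Fosl1 in conventional anti-CD3 (0.836, replicate 1 at 4.08), Fosl2 in conventional anti-CD3 (0.877, replicate 2 at 8.92), Fosl2 in unconventional anti-CD3 with CsA (0.843, replicate 3 at 7.53) and Jund in conventional anti-CD3 with CsA (0.878, replicate 3 at 9.47).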

How the results depend on the processing

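Over 11 alternatives and the fits leaving out 1 array, 39 of 50 changes of a member kept direction and call, among them every drug effect and difference of effects of Fosb, Junb, Batf3 and Atf3; no alternative moved a count of members or genes called by over 1.5 times. Without 1 array the members called numbered 6 to 7 for the drug in the conventional clone, 4 to 6 in the unconventional clone, 5 to 6 for the difference, 8 to 10 between clones with anti-CD3 alone and 7 to 8 with the drug. Directions turned in 5 cases, none of them called: Fos in the unconventional clone under quantile (-0.00735) or cyclic loess (-0.00821) normalization, array weights (-0.0250) or without unconventional anti-CD3 replicate 1 (-0.0553, in a range up to 0.137 over the arrays left out), and Fosl1 in the conventional clone without conventional anti-CD3 replicate 1 (-0.0635, up to 0.1003). The replicate block ended 1 call, the difference of effects of Fos (0.45, adjusted p = 0.05002), and no other of a member. Replicate numbers were not taken to pair arrays in the main fit. That call was also lost under quantile normalization (0.38), median centring (0.39), no variance moderation (0.45) and array weights (0.37). Background correction could not be varied on summarised values, and the fit of compared groups only has no counterpart for the difference of effects. Low signal limits Fosl1 and Fos.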
